A study of Homo sapiens with 4 samples.

Results

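SUFU, which encodes an inhibitor of sonic hedgehog (SHH) signalling, and PRKAR1A, which encodes a regulatory subunit of a kinase that restrains the same pathway, were followed through the ATOH1-TRAP libraries of human pluripotent stem cells (hPSCs) at day in vitro (DIV) 28. They were chosen by name, as the SHH pathway genes whose transcripts could be tied to a gene symbol, and they are 2 of the 1654 genes that could be tied. SUFU was summed over 5 transcripts and PRKAR1A over 7, of 69548 transcripts in each library.

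All libraries came from the RUES2 embryonic stem cell line carrying the ATOH1-EGFP-L10a transgene, in which a human ATOH1 enhancer drives a GFP-tagged ribosomal protein. Every culture was patterned with dual SMAD inhibition (SB431542 and LDN-193189), CHIR99021, FGF2, BDNF and BMP7 in N2/B27 medium with puromycin. The labels name no agonist or inhibitor of SHH signalling for these libraries. The 3 immunoprecipitates (IPs) held ribosome-bound RNA pulled down through the tag in 3 independent differentiation experiments. The 1 input is named input and, in a figure caption of the paper, also unbound. Whether it held RNA of the whole culture is not stated there. Estimated counts totalled 34603230, 36860319 and 37719839 in the IPs, against 41173019 in the input.

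SHH binds the receptor PTCH1 and thereby releases SMO, which acts in the primary cilium to turn GLI transcription factors into activators. SUFU binds GLI proteins, keeps them out of the nucleus and favours their processing into repressors. Protein kinase A (PKA) phosphorylates GLI proteins and so primes that processing, while PRKAR1A, the type I alpha regulatory subunit, holds the catalytic subunits of PKA inactive until cyclic AMP binds. SHH is the main mitogen of cerebellar granule cell progenitors, the cells that ATOH1 marks, and inherited SUFU mutations predispose to medulloblastoma of the SHH class.

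Which library is the input differs between the sample list and the file tags. The sample with the input label carries a tag in its title, and the file bearing that tag is listed under an IP sample. That file was taken as the input here, as the rule for the members says. With it as input, 1699 genes of the study's table could be matched, against 5, 1 and 4 genes with each other library as input. The library scaling had been fitted with that file as input and was not refitted for the others. These counts therefore do not stand on equal terms. The table's fold changes entered this match for SUFU, PRKAR1A and every other joined gene, ATOH1 included. Their direction, fold change and adjusted p are therefore not independent of the study's own result. With the listed assignment, SUFU, PRKAR1A and 39 of 40 other genes examined turned direction. Those values stand beside the results of the pair or at the end. The input also carries another tag than the IPs. What the tag stands for is not given in the sources used here, and any difference it marks cannot be told apart from that of the IP. Across genes above 10 CPM in any library, Pearson's r of log2 CPM was 0.902 to 0.910 between IPs and 0.679 to 0.693 between an IP and the input.

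SUFU lies on the plus strand of chromosome 10 (GRCh37 chr10:104263729-104393292) and shares no exonic base with another annotated gene. PRKAR1A lies on the plus strand of chromosome 17 (GRCh37 chr17:66507921-66547460). Of its exonic bases, 546 (4.34%) are shared with a long noncoding RNA gene of the same strand, ENSG00000267009, whose reads cannot be told apart from those of PRKAR1A there.

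The promoters of the pair, the 250 bases before a RefSeq gene start on the plus strand of GRCh38.p14, are shown because the genes were lower in the same libraries and because PKA acts on genes through cyclic AMP response elements (CREs). Capitals mark a CRE (TGACGTCA) and a CCAAT box (CCAAT, or ATTGG when read from the other strand). SUFU has 1 annotated start and PRKAR1A has 5, of which only the third, the 1 that held any of these motifs, is shown.
SUFU, GRCh38.p14 chr10:102503722-102503971: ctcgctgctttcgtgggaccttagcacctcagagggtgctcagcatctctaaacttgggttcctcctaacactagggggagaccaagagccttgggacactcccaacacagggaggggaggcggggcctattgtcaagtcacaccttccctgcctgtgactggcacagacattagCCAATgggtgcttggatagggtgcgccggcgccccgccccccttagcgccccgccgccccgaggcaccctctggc
PRKAR1A, GRCh38.p14 chr17:68512180-68512429: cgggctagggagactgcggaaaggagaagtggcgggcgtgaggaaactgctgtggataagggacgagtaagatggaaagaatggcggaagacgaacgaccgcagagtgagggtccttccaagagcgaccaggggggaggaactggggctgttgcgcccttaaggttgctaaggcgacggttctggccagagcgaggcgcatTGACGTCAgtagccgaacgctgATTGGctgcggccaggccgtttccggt

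The SUFU window held a CCAAT box 75 bases before the start and neither a CRE nor the GLI consensus GACCACCCA on either strand. The window of the third PRKAR1A start held a CRE 49 bases and a CCAAT box 27 bases before the start. No window of the other 4 PRKAR1A starts held any of these motifs, and none of the 5 held the GLI consensus. Among 35116 promoters of this length, 1.65% held the CRE, 32.0% the CCAAT box and 0.199% the GLI consensus. The motifs do not overlap one another in the windows shown, and a match is a description of the letters only.

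SUFU was present at a low level in the IPs and stood lower there than in the input. In TPM, a relative abundance corrected for transcript length, SUFU was at 5.05, 5.08 and 4.59 in the IPs, against 14.7 in the input. The IPs lay close together at 4.91 ± 0.271 (SD, n = 3), and none came near the input. Each IP held 0.344, 0.346 or 0.313 of the input level, a mean of 0.334 ± 0.0184 (SD, n = 3).

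The reads behind the SUFU values were 631, 710 and 699 in the IPs, against 1901 in the input. Their 95% Poisson intervals, which cover counting error only, were 583 to 682, 659 to 764 and 648 to 753 in the IPs, against 1817 to 1988 in the input. The intervals of the IPs overlap one another and lie well below that of the input. After scaling by the trimmed mean of M values (TMM), SUFU stood at 18.6 ± 0.856 CPM (read counts relative to library size; SD, n = 3) in the IPs, against 47.0 CPM in the input.

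By edgeR's quasi-likelihood test, SUFU was lower in the IPs, with a log2 fold change of -1.34 ± 0.18 (SE) and an adjusted p of 0.0426 (Benjamini-Hochberg over 43797 genes and transcripts). Lower calls made up 1.48% of all genes and transcripts tested. Among the joined genes, which the study's own table selects, 27% were called lower. The study's fold change was used to tie SUFU to its transcripts, so the call is no independent test of it. The call is also narrow. It was lost without any 1 IP library (adjusted p 0.115 to 0.200) and with limma-voom (0.0693). With the input set by the listed assignment, the log2 fold change was 0.69 with an adjusted p of 1.00, the highest of the alternatives, whose lowest was 1.59e-14 with DESeq2 and a length offset. Since there is 1 input library, its spread is unknown, and an exact two-sided permutation test of 3 libraries against 1 cannot go below p = 0.25.

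PRKAR1A was an abundant transcript, and like SUFU it stayed below the input level in every IP. Its level was 106.2, 101 and 112 TPM in the IPs, against 391 TPM in the input. The IPs again formed a tight group of 106.5 ± 5.27 TPM (SD, n = 3) far below the input. They held 0.272, 0.259 and 0.286 of the input level, a mean of 0.272 ± 0.0135 (SD, n = 3).

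Far more reads lay behind PRKAR1A than behind SUFU, with 9562, 9938 and 11175 in the IPs, against 29376 in the input. In CPM it stood at 279.5 ± 19.8 (SD, n = 3) in the IPs, against 726 in the input. The log2 fold change was -1.38 ± 0.12 (SE), with an adjusted p of 0.0292 by edgeR. This call too was lost without any 1 IP library (adjusted p 0.107 to 0.194) and with limma-voom (0.0642). With the listed assignment of the input, the log2 fold change was 0.70 with an adjusted p of 1.00, the highest of the alternatives, whose lowest was 3.87e-32 with DESeq2. PRKAR1A was tied through the study's fold change as well, so its call is no independent test either. In these bulk libraries, fewer cells with the transcript, less RNA per cell and a smaller ribosome-bound part of it cannot be told apart.

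**Figure D1:**
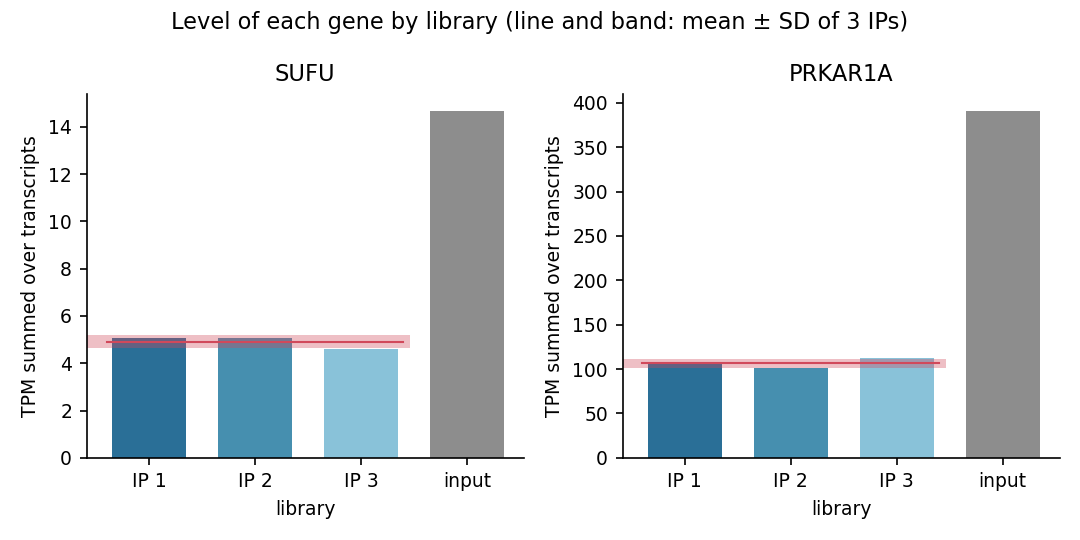
Level of SUFU (left) and PRKAR1A (right) in TPM (vertical axis) in each of the 3 IP libraries and the input library (horizontal axis), with the mean ± SD of the IPs as a line and band. SUFU sits between 4.59 and 5.08 TPM in the IPs and at 14.7 TPM in the input, and PRKAR1A between 101 and 112 TPM in the IPs and at 391 TPM in the input.

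Measured per length, PRKAR1A was the more abundant of the pair in every library. Its TPM was 21.0, 20.0 and 24.4 times that of SUFU in the IPs (21.8 ± 2.29, SD, n = 3), against 26.6 times in the input. The ratio thus kept its order of size, with the input above every IP. The log2 fold changes of the pair differed by less than the SE of either, and their difference was not tested. By mean TPM in the IPs, PRKAR1A ranked 446 and SUFU 1451 of the 1654 joined genes, and in the input they ranked 184 and 1237. With the listed assignment, they ranked 306 and 1408 in the IPs, and 455 and 1461 in the input.

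The pair sat near the middle of the joined genes with a negative log2 fold change. Counted from the lowest log2 fold change, PRKAR1A ranked 398 and SUFU 425 among the joined genes. Of these, 809 had a negative log2 fold change, with a median of -1.36, close to the value of either gene. With the listed assignment of the input, SUFU ranked 1279 and PRKAR1A 1292, among 842 joined genes with a positive and 812 with a negative log2 fold change, so the place near the middle was then on the other side. The median over all joined genes was 0.80 and over all genes and transcripts tested 0.10. The coefficient of variation of the CPM over the IPs was 4.60% for SUFU and 7.07% for PRKAR1A, below the median of 9.98% over the joined genes.

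**Figure D2:**
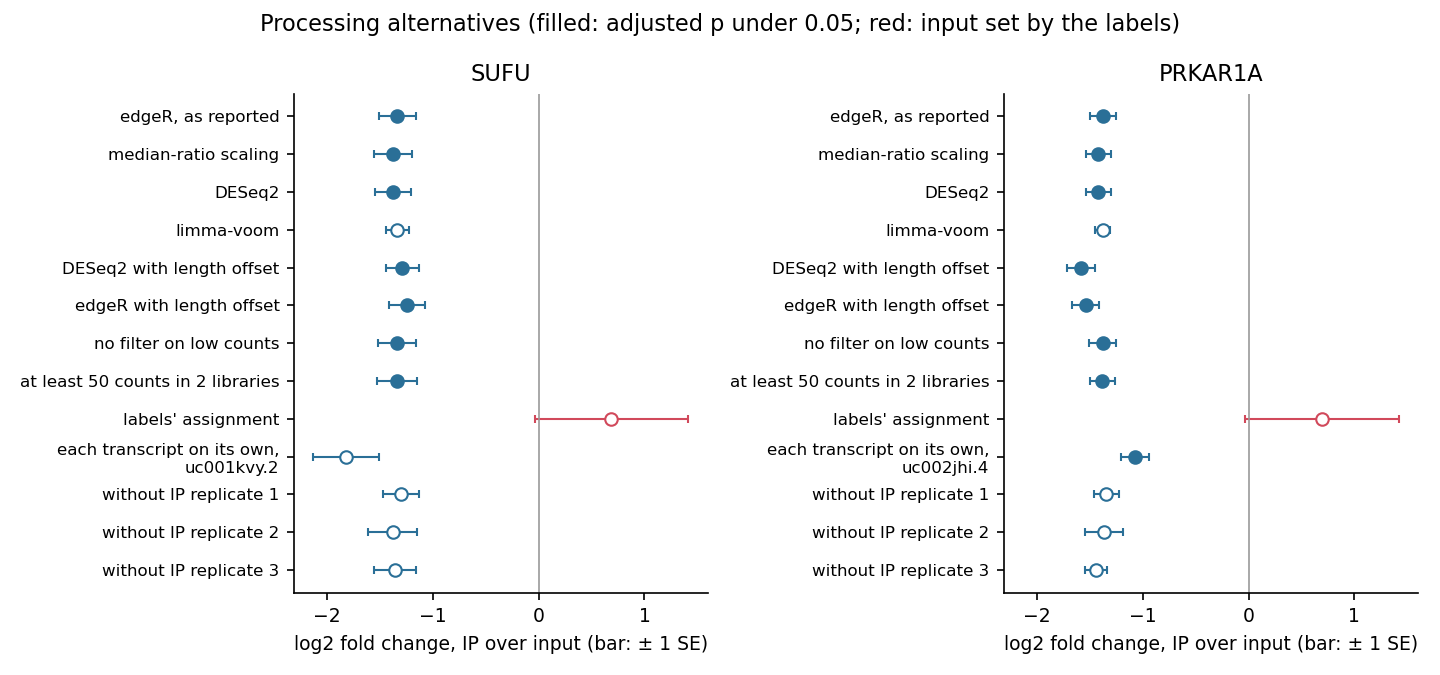
Log2 fold change of SUFU (left) and PRKAR1A (right), IP over input, with bars of ± 1 SE (horizontal axis), for the values reported and 12 alternatives of processing (vertical axis); filled points have an adjusted p under 0.05. The 11 alternatives that keep the input lie between -1.82 and -1.25 for SUFU and between -1.58 and -1.07 for PRKAR1A, and the listed assignment, in red, gives 0.69 and 0.70.

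The transcripts of each gene did not share the difference evenly. Among the 5 SUFU transcripts, the longest, uc001kvy.2 of 4948 bases, carried it. Its level was 2.34, 3.06 and 3.40 TPM in the IPs, against 13.1 TPM in the input. Next by reads over all libraries, uc009xxe.2 of 4015 bases, was at 2.44, 1.51 and 0.454 TPM in the IPs, against 1.41 TPM in the input. The input thus lay inside the range of the IPs for uc009xxe.2 and above every IP for uc001kvy.2.

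As a share of SUFU's TPM, uc001kvy.2 made up 46.2%, 60.3% and 74.0% in the IPs, against 89.6% in the input. The share of uc009xxe.2 was 48.3%, 29.8% and 9.89% in the IPs, against 9.58% in the input. These shares differed more between the IPs than the summed level of the gene did. Another transcript, uc009xxf.2 of 4157 bases, was at 0.501 and 0.696 TPM in IP 2 and IP 3 and listed at 0 or nearly so in IP 1 and in the input. The remaining 2 stood at 0.215 TPM or less in every library.

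Tested on its own, uc001kvy.2 had a log2 fold change of -1.82 ± 0.31 (SE) and missed the threshold (adjusted p 0.0687, edgeR), and uc009xxe.2 had 0.37 ± 1.04 (SE; adjusted p 0.911). Of the 4 SUFU transcripts that could be tested, 0 were called, and 1 (uc001kvy.2) had an unadjusted p under 0.05. Over all 46762 transcripts, 1.1% were called lower, and 3918 lower and 5113 higher had an unadjusted p under 0.05. Salmon divides reads among overlapping transcripts by likelihood, and the exons of these transcripts were not analysed here, so the split is less certain than the sum.

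For PRKAR1A, 2 of the 7 transcripts held most of the level in every library. The shorter, uc031ref.1 of 1212 bases, was at 37.9, 33.5 and 41.3 TPM in the IPs, against 179 TPM in the input. The longer, uc002jhi.4 of 4302 bases, was at 57.4, 62.8 and 62.5 TPM in the IPs, against 162 TPM in the input. In the IPs uc002jhi.4 was the more abundant, and in the input uc031ref.1 was.

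The share of uc031ref.1 in PRKAR1A's TPM was 35.6%, 33.0% and 36.9% in the IPs, against 45.8% in the input. The share of uc002jhi.4 was 54.1%, 61.9% and 55.9% in the IPs, against 41.5% in the input. No IP overlapped the input in either share, and the change in shares was not tested. Salmon's effective length, by which it scales TPM, was averaged over transcripts, weighted by abundance. For PRKAR1A this mean was 2966, 3041 and 2924 bases in the IPs, against 2658 bases in the input. For SUFU it was 4117, 4343 and 4457 bases in the IPs, against 4585 bases in the input.

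Tested on their own, 3 of the 7 PRKAR1A transcripts were lower by edgeR, beside the same 1.1% of all transcripts. These were uc002jhg.4 at -2.76 ± 0.26 (adjusted p 0.0360), uc031ref.1 at -1.91 ± 0.19 (0.0362) and uc002jhi.4 at -1.07 ± 0.13 (0.0448; log2 fold change ± SE). The first of them, of 4495 bases, was at 3.27, 4.05 and 4.62 TPM in the IPs, against 34.2 TPM in the input. Of the gap in PRKAR1A's TPM between the mean of the IPs and the input, uc031ref.1 made up 49.8%, uc002jhi.4 35.6% and uc002jhg.4 10.6%. The other 4 did not pass, and of these uc002jhj.4 was at 1.10 to 3.65 TPM in the IPs, against 11.0 TPM in the input.

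**Figure D3:**
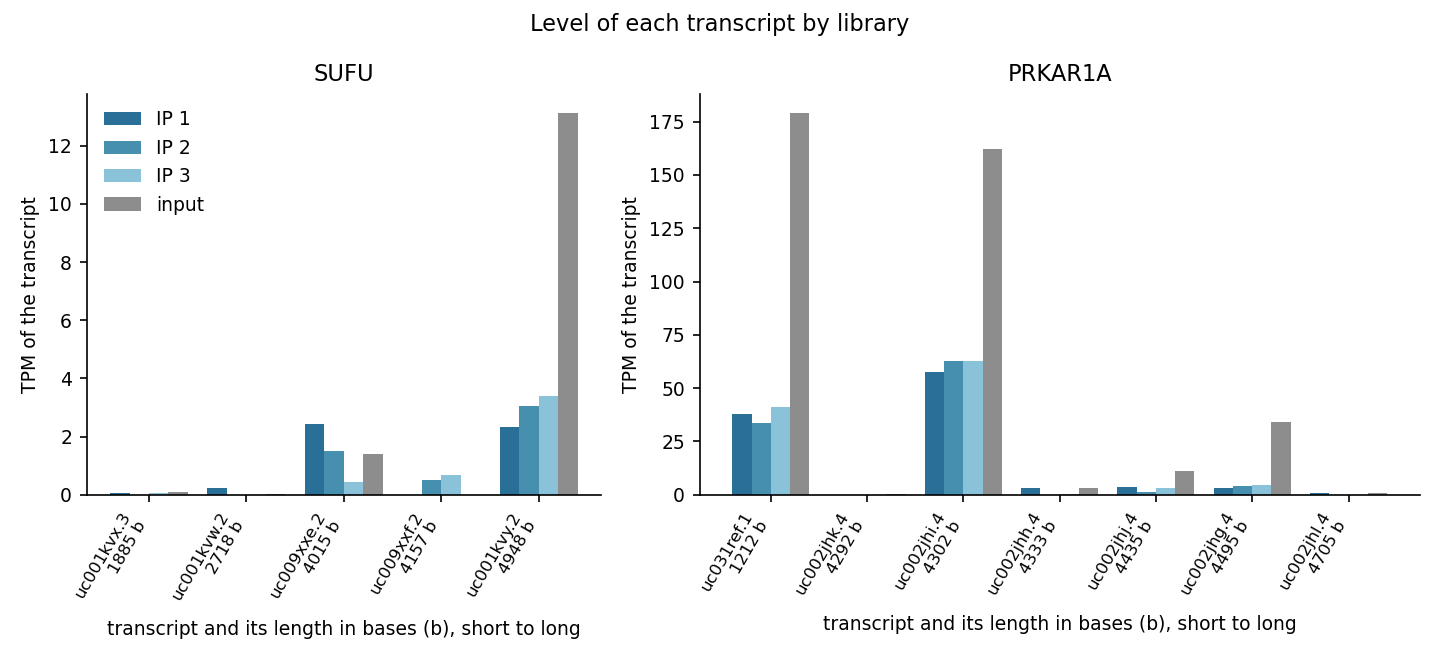
Level in TPM (vertical axis) of the 5 SUFU transcripts (left) and the 7 PRKAR1A transcripts (right), ordered by length in bases (horizontal axis), in the 3 IPs and the input. Every IP lies below the input for uc001kvy.2 (at most 3.40 TPM in the IPs, against 13.1 TPM), uc031ref.1 (41.3 TPM, against 179 TPM) and uc002jhi.4 (62.8 TPM, against 162 TPM), and the IPs span the input for uc009xxe.2 (0.454 to 2.44 TPM, against 1.41 TPM).

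The other genes of the pathway could be described only where they were joined. Of 196 genes in 5 lists (SHH pathway, PKA and cyclic AMP, GLI regulators, primary cilium and SHH targets), 15 were joined. SUFU and PRKAR1A were the only joined genes of the 22 in the SHH pathway list, and PTCH1, SMO and the GLI genes were not analysed here. Of the 15, 5 were lower and 6 higher by edgeR. Lower calls made up 1.48% of all genes and transcripts tested and 27% of the joined genes, and higher calls 2.31% and 29.4%. The 15 entered through the study's own call, so these counts are a description.

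Of 51 PKA and cyclic AMP genes, 7 were joined, of which 4 were lower, 2 higher and 1 did not pass. These stand beside 27% lower and 29.4% higher over the joined genes, and 1.48% and 2.31% over all genes and transcripts. The median log2 fold change of the 7 was -1.38, against 0.80 over the joined genes. PRKAR1A is itself the middle of the 7, so this median is its own value. The anchoring proteins AKAP12 and AKAP13, which tether PKA to sites in the cell, were lower. AKAP12 was at 19.1, 17.2 and 14.7 TPM in the IPs, against 81.3 TPM in the input (log2 fold change -1.93 ± 0.13, SE). AKAP13 was at 10.0, 7.50 and 4.34 TPM in the IPs, against 25.6 TPM in the input (-1.63 ± 0.21, SE), a call lost with a length offset (adjusted p 0.153, edgeR).

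PDE4B, a phosphodiesterase that breaks cyclic AMP down, was lower as well. It was at 4.72, 4.30 and 4.00 TPM in the IPs, against 15.0 TPM in the input (-1.43 ± 0.20, SE), and missed the threshold without a filter on low counts (adjusted p 0.0502, edgeR). PRKAR1A completes the 4.

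The genes that were higher act elsewhere in the same circuit. PKIB, a member of the family of PKA inhibitor peptides, was at 67.3, 72.5 and 73.8 TPM in the IPs, against 32.8 TPM in the input (log2 fold change 1.42 ± 0.15, SE). ADCY2, an adenylyl cyclase that makes cyclic AMP, was at 24.1, 17.2 and 15.0 TPM in the IPs, against 2.57 TPM in the input (3.19 ± 0.33, SE). CREB1, the transcription factor that binds CREs, was at 25.6, 20.9 and 22.5 TPM in the IPs, against 53.8 TPM in the input, and did not pass (-0.46 ± 0.13, SE; adjusted p 0.154, edgeR). PKIB was thus above the input in every IP while PRKAR1A, the other inhibitor of the catalytic subunits among the joined genes, was below it.

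Of 35 GLI regulators, 2 were joined. RBX1, the RING subunit of cullin ubiquitin ligases, was at 918, 855 and 923 TPM in the IPs, against 534 TPM in the input, and was higher (1.09 ± 0.13, SE). CSNK1E, a casein kinase, was at 127, 115 and 89.7 TPM in the IPs, against 71.6 TPM in the input, and did not pass (0.96 ± 0.19, SE; adjusted p 0.0837, edgeR).

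Of 71 genes of the primary cilium, 3 were joined. ARL3, a small GTPase that releases lipidated cargo in cilia, was at 66.0, 57.5 and 58.6 TPM in the IPs, against 38.7 TPM in the input, and was higher (0.98 ± 0.13, SE). TMEM107, of the ciliary transition zone, was at 32.8, 25.9 and 22.8 TPM in the IPs, against 13.3 TPM in the input, and did not pass (1.24 ± 0.25, SE; adjusted p 0.0849, edgeR). KIFAP3, a subunit of the kinesin that carries cargo into cilia, was at 25.04, 28.2 and 35.5 TPM in the IPs, against 97.8 TPM in the input (-1.30 ± 0.26, SE). It missed the threshold (adjusted p 0.0833, edgeR) and passed with at least 50 counts in 2 libraries (0.0485).

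Of 22 SHH targets, ATOH1 and HSD11B2 were joined, and each was higher. Higher calls made up 29.4% of all joined genes and 2.31% of all genes and transcripts. ATOH1, whose enhancer drives the tag and whose protein granule cell progenitors need, was at 37.8, 50.6 and 44.1 TPM in the IPs, against 0.304 TPM (7 reads) in the input (log2 fold change 7.49 ± 0.45, SE). HSD11B2, which inactivates glucocorticoids, was at 9.95, 9.18 and 6.49 TPM in the IPs, against 0.238 TPM in the input (5.47 ± 0.58, SE). ATOH1 is on the list as an SHH target of granule cell progenitors in the mouse. Every IP was above the input for each gene, but since the match used the fold change, ATOH1 is no independent check of which library is the input.

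**Figure D4:**
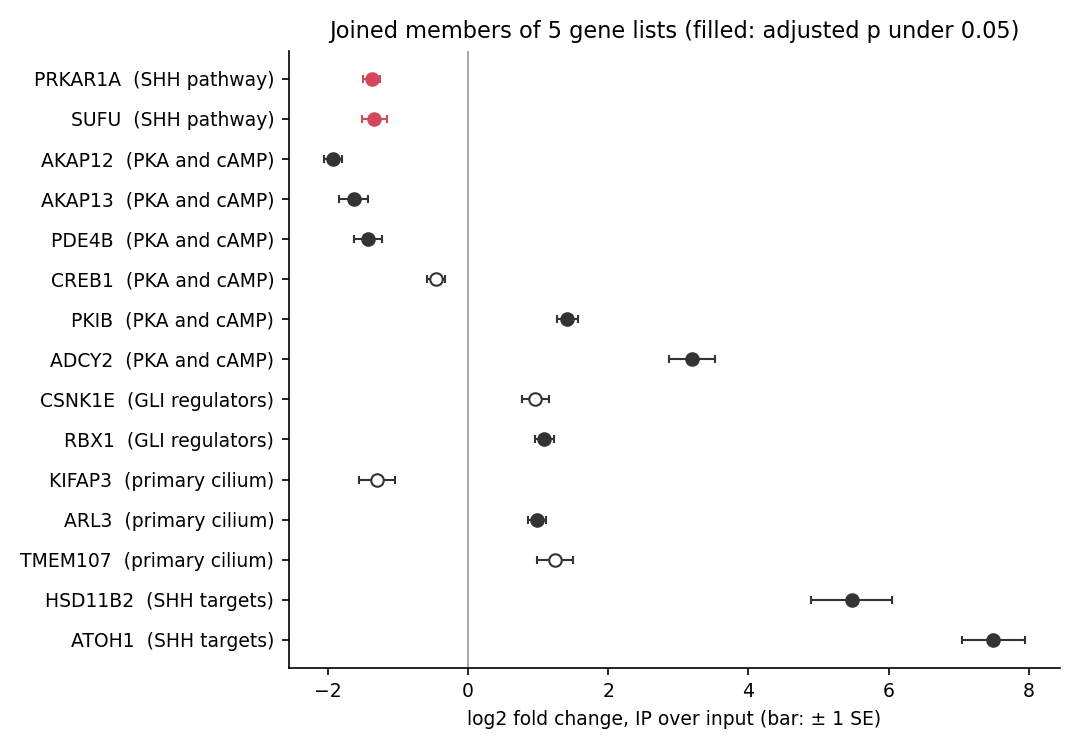
Log2 fold change, IP over input, with bars of ± 1 SE (horizontal axis) of the 15 joined genes of 5 lists (vertical axis, with PRKAR1A shown under the SHH pathway), with SUFU and PRKAR1A in red and filled points for an adjusted p under 0.05. SUFU at -1.34 and PRKAR1A at -1.38 stand on the lower side with AKAP12, AKAP13 and PDE4B, and ATOH1 at 7.49 stands at the other end.

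Every joined marker of mesenchyme and vessel and of the G2 and M phases had a negative log2 fold change, as the pair had. The part of such cells in the pair's values was not tested. Of 14 mesenchyme and vessel markers, 6 were joined, and 5 of these were lower, beside 27% of all joined genes and 1.48% of all genes and transcripts. The median log2 fold change of the 6 was -3.16, with a range of -8.09 to -1.42, against -1.34 for SUFU and -1.38 for PRKAR1A. Their summed level was 284 to 321 TPM in the IPs, against 1983 TPM in the input. COL1A1, a collagen gene, had the highest CPM of the joined members. It was at 182 to 227 TPM in the IPs, against 726 TPM in the input.

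From a list of 28 G2 and M phase genes, 10 could be joined, of which 8 were lower, beside the same 27% and 1.48%, with a median log2 fold change of -1.54, against 0.80 over the joined genes. Their summed level was 78.2 to 82.6 TPM in the IPs, against 294 TPM in the input. TPX2, a spindle assembly factor, had -1.50 ± 0.14 (SE) and the proliferation marker MKI67 -1.36 ± 0.16 (SE). These values are close to those of SUFU and PRKAR1A. They are also close to the median of -1.36 over all joined genes with a negative log2 fold change.

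Of 11 neural stem cell and astroglial markers, 4 were joined, with 2 lower (TNC and SOX9), 1 higher (SOX2) and 1 that did not pass (FABP7). Over the joined genes, 27% were lower and 29.4% higher, and over all genes and transcripts 1.48% and 2.31%. The 4 summed to 120 to 141 TPM in the IPs, against 376 TPM in the input. Of 21 markers of granule cell progenitors and the rhombic lip, 12 were joined and 11 were higher. This stands beside 29.4% of all joined genes and 2.31% of all genes and transcripts. The 12 summed to 1264 to 1909 TPM in the IPs, against 104 TPM in the input. No joined marker of these lists was at 0 in any library. GAPDH, a glycolytic enzyme often used for scaling, was at 1437, 1507 and 1589 TPM in the IPs, against 3409 TPM in the input, and did not pass (-0.84 ± 0.14, SE; adjusted p 0.0573, edgeR).

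The joined genes with profiles most like that of SUFU were ARHGEF1, RRBP1, AP3B1, SEL1L and KIAA1429, at Euclidean distances of 0.0638 to 0.0803 between log2 CPM profiles centred over the 4 libraries. Those most like PRKAR1A were GART, DHX30, PIGG, G3BP1 and ATP13A1, at distances of 0.0368 to 0.0870. Their log2 fold changes lay between -1.43 and -1.27, as the choice by likeness to the pair fixes, and turned positive with the listed assignment. In TPM, ARHGEF1 averaged 8.99 ± 0.663 in the IPs (SD, n = 3), against 28.9 in the input, and GART at 17.9 ± 1.08 in the IPs, against 50.9 in the input. SUFU and PRKAR1A lay 0.142 apart, which ranks PRKAR1A 35 among the neighbours of SUFU and SUFU 24 among those of PRKAR1A.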

How the data were processed

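ATOH1-TRAP libraries (3 IPs and 1 input) were made by the authors with SMART-Seq v4 and Nextera XT and read as single reads. The deposited estimated counts and TPM come from Salmon 0.8.2 on hg19 UCSC knownGene transcripts, without gene names. TPM are scaled by transcript length and depth, so levels compare between genes. Intervals and floors cover counting error only.

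Transcripts were tied to symbols as sums of 1 to 20 neighbours that met the mean count (within 2%) and the log2 fold change (within 1e-05) of a row in the study's gene table, of which 1997 rows were available and 17970 were not. Of 1699 genes matched, 43 with several matches and 2 sharing a transcript were left out. Of the 1654 joined, 472 rest on 1 transcript. After shifting the table's fold changes, 29 genes still matched. On mean count alone, 5093 sums suited SUFU and 5283 PRKAR1A, and with the fold change 1 did for each. The authors' fold changes and p-values were otherwise not used.

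Each joined gene was summed, other transcripts were kept on their own, and counts were rounded. The quasi-likelihood test of edgeR 4.0.16 (R 4.3.3), after filterByExpr with a minimum count of 10 and TMM scaling, gave adjusted p, read at a threshold of 0.05. SE was taken as the log2 fold change over the root of F. Alternatives were median-ratio scaling, DESeq2 1.42.0, limma-voom (limma 3.58.1), length offsets, other filters, leaving out each IP, the listed assignment of the input and each transcript on its own. The functions were tested on simulated data. The residual spread comes from the IPs alone.

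Members, the 10 gene lists and tests were chosen with earlier results of these data known. Named were the pair, every joined member of 5 pathway lists, ATOH1, GAPDH, up to 4 joined members of the other lists by mean CPM, and the 5 nearest profiles of each member. Motifs were searched in RefSeq promoters (GRCh38.p14) and positions taken from GENCODE v44lift37.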

Additional observations from a re-analysis of the deposited data

How the results depend on the processing

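SUFU kept its direction in 11 of 12 alternatives and its call in 6, and PRKAR1A kept its direction in 11 of 12 and its call in 7. Without 1 IP library the log2 fold change ran from -1.38 to -1.30 for SUFU and -1.44 to -1.34 for PRKAR1A, with 0 calls among all genes and transcripts and 3569 to 4267 higher and 3129 to 3672 lower at an unadjusted p under 0.05. With limma-voom the values were -1.34 (adjusted p 0.0693) and -1.38 (0.0642), again with 0 calls (3793 higher and 6399 lower unadjusted). The most abundant SUFU transcript on its own had -1.82 (adjusted p 0.0687, edgeR). DESeq2 called 5824 higher and 4038 lower, DESeq2 with a length offset 5853 and 4049, and edgeR on features with 50 or more counts in 2 libraries called 1868 and 1150, against 1013 and 650 as reported. Adding 1 TPM moved the SUFU ratio to 0.377. The cause was not tested, apart from the fewer features tested under that filter. Of the 40 other named genes, 32 were called, 0 without any 1 IP library or with limma-voom, and 40 with DESeq2. On mean count alone, the nearest sum for SUFU held 1 transcript and for PRKAR1A 16.

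With the listed assignment of the input, which exchanges the input with an IP, 0 were called (1032 higher and 229 lower unadjusted), and 39 of the 40 turned direction, all but FABP7, which stood at 0.0025. The TPM ratio became 1.61 for SUFU and 1.90 for PRKAR1A. The log2 fold changes became SUFU 0.69, PRKAR1A 0.70, AKAP12 0.82, AKAP13 0.50, PDE4B 0.56, CREB1 0.16, PKIB -0.18, ADCY2 -0.999, RBX1 -0.24, CSNK1E -0.46, ARL3 -0.35, TMEM107 -0.63, KIFAP3 0.94, ATOH1 -0.17, HSD11B2 -0.83 and GAPDH 0.50, then COL1A1 0.63, ADGRL4 1.99, TM4SF1 2.96, DCN 1.02, TNC 1.29, SOX9 1.06, SOX2 -0.21, HES6 -1.06, MSX1 -0.87, MEIS2 -0.34, INSM1 -0.51, TPX2 0.80, KIF20A 0.88, MKI67 0.44 and DLGAP5 0.62, and for the nearest profiles ARHGEF1 0.73, RRBP1 0.69, AP3B1 0.72, SEL1L 0.62, KIAA1429 0.76, GART 0.67, DHX30 0.71, PIGG 0.64, G3BP1 0.75 and ATP13A1 0.63.

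No paired analysis was possible because the input is 1 library. Which IP, if any, came from the same differentiation experiment as the input is not given in the sources used here. A single input limits every comparison, and at 631 to 1901 reads SUFU is the less precisely counted of the pair.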
